A study of Mus musculus with 10 samples.

Results

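The comparison of DMBA with control took 4 of the 10 RNA-seq libraries of a study of mouse intestinal organoids, 2 in each group, and all 47069 genes of the deposited count table whose identifier begins with ENSMUSG. DMBA is dimethylbenzanthracene, a carcinogen, and the question was how gene expression in libraries labelled with it differed from that in libraries labelled with saline. Of these genes, 24121 had at least 1 count in the 4 libraries and 22948 had none. The organoids, which are spheres of epithelium grown in Matrigel from intestinal crypts, were of strain C57BL/6 and were labelled as cultured for 50 days in a medium with Noggin, EGF and R-spondin-1. According to the methods of the study, mice of this project carried Lgr5-EGFP-CreERT2, in which a stem cell promoter drives a Cre that needs tamoxifen, and loxP sites in both alleles of Ppp2r1a, written Ppp2r1a flox/flox. Both groups are thus taken to share these alleles, and neither was labelled as given tamoxifen. Control libraries were labelled with saline, and the other group with DMBA followed by the word Long, for which no explanation is given in the sources used here. How many mice or cultures stood behind each library was not stated, so p-values measure the spread between libraries of a group, which may be technical. That spread was estimated over all 10 libraries of the 5 groups, not over the 4 compared alone. The methods of the study describe replicate organoid cultures per condition and repeated experiments, but do not tie them to these libraries.

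The libraries labelled control, called control 1 and control 2 here, held 10291026 and 9994298 counts, and those labelled DMBA, called DMBA 1 and DMBA 2, held 10020336 and 9159327. Ppp2r1a, the scaffold subunit gene of the phosphatase PP2A, was present in every library at 123 and 129 normalized CPM in control and 167 and 153 in DMBA. Its values did not overlap between groups and its difference passed the test (log2 fold change 0.34, SE 0.11, adjusted p = 0.0291), but the call was lost without control 1 (adjusted p = 0.154), without control 2 (0.0909) or without DMBA 1 (0.149). In a fit without 1 library, the lone library of its group is assumed to vary like those of the other groups. Normalized CPM are counts relative to library totals that were rescaled by TMM (trimmed mean of M-values). Fold changes and p-values are from the quasi-likelihood test of edgeR, and p-values were adjusted over all genes tested by the method of Benjamini and Hochberg. The labels and the library names need care. The names of control libraries contain an S and those of DMBA libraries an L, as do those of the tamoxifen groups called TAM short and TAM long. Most listed genes of enterocyte digestion and absorption were lower, and most listed genes of ion and water transport in the colon higher, in the libraries labelled DMBA, as the values further on show. DMBA treatment and whatever the S and the L stand for cannot be told apart in these 4 libraries. Whether the letters name segments of the gut, such as small and large intestine, and the label DMBA a treatment of these libraries, could not be settled from the sources used here. The names control and DMBA stand for the labels alone.

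The culture label was checked against markers of cells that an epithelial organoid should lack. Myh11, the myosin of smooth muscle, was at 1069 and 855 normalized CPM in control and 4329 and 2360.3 in DMBA, and Col3a1, a collagen of fibroblasts, at 563 and 492 normalized CPM in control and 1002 and 895 in DMBA. Igha, the heavy chain of immunoglobulin A, was at 2012 and 2300 normalized CPM in control and 1369 and 3949 in DMBA. Such genes of muscle, connective tissue and plasma cells were therefore abundant in both groups, and genes of smooth muscle, fibroblasts and neurons were mostly higher in DMBA. Epcam, a surface protein of epithelial cells, was at 2465 and 2574 normalized CPM in control and 1418 and 1607 in DMBA, and Krt8, an epithelial keratin, at 5454 and 5542 normalized CPM in control and 5656 and 5200.3 in DMBA. The libraries were labelled both as intestinal organoid and as intestine tissue, and whether they held organoids alone could not be settled here. The RNA of each library is a mixture, and fewer cells of a type cannot be told apart from less RNA per cell. Xist was at or below 1.16 normalized CPM and Ddx3y, a gene of the Y chromosome, at or above 54.2 in all 4 libraries.

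Replicates differed more in DMBA than in control. Of 9312 genes with at least 10 normalized CPM in control, 32 were more than 2-fold apart between its replicates, against 456 of 9946 in DMBA. The chi-square statistic of the replicates' counts per degree of freedom was 5.43 in control and 48.41 in DMBA, so that no pair of libraries agreed within sampling noise. The same statistic was 4.3 in TAM short and 16.92 in TAM long. Since the test took 1 spread per gene from all 10 libraries, it may understate the spread in DMBA. With each value set to at least 3 counts, 88 of 9965 genes were more than 8-fold apart between DMBA 1 and DMBA 2, of which 70 were higher in DMBA 2. The largest ratios belonged to digestive enzymes of the exocrine pancreas. Ctrb1, a chymotrypsinogen, had 0, 0, 4 and 14755 counts in control 1, control 2, DMBA 1 and DMBA 2. In the same order, Pnlip, pancreatic lipase, had 0, 0, 2 and 5789 counts and Prss2, a trypsinogen, had 0, 0, 2 and 4517. Cpb1, a carboxypeptidase, had 4, 1, 0 and 4294 counts, Cela3b, an elastase, 2, 1, 0 and 4030 and Try5, a trypsinogen, 0, 0, 4 and 7246. Ribosomal RNA of the mitochondrion stood apart as well, with mt-Rnr2 at 30.9 normalized CPM in DMBA 1 and 1479 in DMBA 2, against 36.7 and 34.8 in control. Of the genes higher in DMBA 1, Osr2, a transcription factor, was at 39.1 and 0.449.

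**Figure D1:**
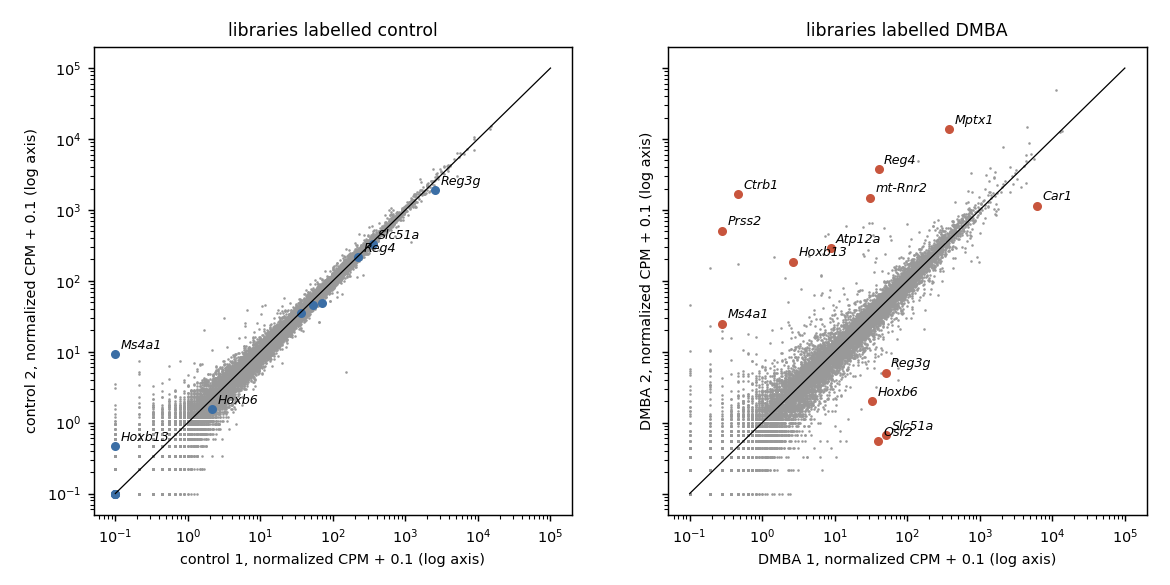
Normalized CPM of each gene in the replicates of control (left panel) and of DMBA (right panel), on log axes, 1 point per gene. Control points stay close to the diagonal, while 456 of 9946 genes in DMBA are more than 2-fold apart, among them a group of pancreatic enzymes seen in DMBA 2.

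DMBA is a polycyclic aromatic hydrocarbon. Such compounds bind the aryl hydrocarbon receptor (AhR), which pairs with Arnt and turns on Cyp1a1 and Cyp1b1, cytochromes P450 that oxidise the hydrocarbon to epoxides. These can form bulky DNA adducts, which nucleotide excision repair removes and to which p53 responds, while conjugating enzymes and efflux pumps clear the products. Lists of genes for each of these steps were therefore examined first.

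The promoters of Cyp1a1, Cyp1b1 and Tiparp are shown because these 3 genes are classical targets of AhR, and the motif of AhR and Arnt is searched for in them. Each sequence runs from 250 bases before to 50 bases after the RefSeq start of the gene on GRCm38.p6, 300 bases in all, 5′ to 3′ on the strand of the gene. Capitals mark GCGTG, the core of the AhR motif, or its reverse complement CACGC.
Cyp1a1: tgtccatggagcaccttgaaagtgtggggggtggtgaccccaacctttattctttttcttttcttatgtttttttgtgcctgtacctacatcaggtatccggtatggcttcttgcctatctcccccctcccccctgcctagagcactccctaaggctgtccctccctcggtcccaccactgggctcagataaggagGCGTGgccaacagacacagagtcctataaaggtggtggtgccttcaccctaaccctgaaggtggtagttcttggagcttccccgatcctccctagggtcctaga
Cyp1b1: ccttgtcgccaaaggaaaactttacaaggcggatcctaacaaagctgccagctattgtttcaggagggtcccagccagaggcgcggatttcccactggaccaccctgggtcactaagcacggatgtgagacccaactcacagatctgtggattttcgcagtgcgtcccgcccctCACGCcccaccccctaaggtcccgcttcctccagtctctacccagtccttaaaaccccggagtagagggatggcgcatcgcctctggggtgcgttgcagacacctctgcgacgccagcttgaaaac
Tiparp: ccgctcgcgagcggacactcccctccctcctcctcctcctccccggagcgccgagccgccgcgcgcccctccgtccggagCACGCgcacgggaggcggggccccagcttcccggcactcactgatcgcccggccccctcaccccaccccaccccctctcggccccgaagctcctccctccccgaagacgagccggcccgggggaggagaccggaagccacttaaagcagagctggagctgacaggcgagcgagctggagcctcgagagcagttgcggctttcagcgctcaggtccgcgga
The Cyp1a1 promoter lies at chr9:57697363-57697662 on the plus strand, that of Cyp1b1 at chr17:79715012-79715311 on the minus strand and that of Tiparp at chr3:65528197-65528496 on the plus strand. Each has 1 match, which begins 54, 76 and 170 bases before the start, respectively. Both strands were searched for these 5 letters, and 32.4% of the 32851 promoters of the same length in the table hold them (10639), so a match is common and describes the sequence without marking a bound site. Of the 12 genes of the AhR list, 9 had a promoter in the table and 5 of these had a match.

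Cyp1a1 (ENSMUSG00000032315) and Cyp1b1 (ENSMUSG00000024087) were both lower in the libraries labelled DMBA. Cyp1b1 was at 11.1 and 13.1 normalized CPM in control and 0.536 and 0.337 in DMBA, with no overlap between groups (74.5% of all genes tested had none), and fell (log2 fold change -4.71, SE 0.46, adjusted p = 3.57e-05). Cyp1a1, a strongly inducible target of AhR, had 11, 43, 4 and 0 counts in control 1, control 2, DMBA 1 and DMBA 2, or 1.24 and 5.18 normalized CPM in control and 0.357 and 0 in DMBA. The Cyp1a1 groups did not overlap, its log2 fold change was -3.93 (SE 1.08, adjusted p = 0.0158), and the call was lost without control 2 (-2.6, adjusted p = 0.173) or without DMBA 2 (-3.11, 0.0577). Tiparp, an ADP-ribosyltransferase that dampens AhR, was at 53.8 and 61.2 normalized CPM in control and 24.5 and 26.6 in DMBA (log2 fold change -1.17, SE 0.14, adjusted p = 0.000115). Nqo1, a quinone reductase, was at 61.8 and 63.1 in control and 32.1 and 16.8 in DMBA (log2 fold change -1.34, adjusted p = 0.00575), and Aldh1a3, which makes retinoic acid, at 18.4 and 25.3 in control and 6.43 and 4.38 in DMBA (log2 fold change -2.0, adjusted p = 0.000316). All 5 of these genes were thus below control in both DMBA libraries. Ephx1, the microsomal epoxide hydrolase that acts with P450 enzymes on DMBA, went the other way, at 8.59 and 9.64 normalized CPM in control and 35.2 and 25.3 in DMBA (log2 fold change 1.73, SE 0.21, adjusted p = 0.000118).

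The receptor itself and its partner did not pass the test. Ahr was at 19.4 and 15.8 normalized CPM in control and 19.2 and 25.7 in DMBA (log2 fold change 0.35, adjusted p = 0.163), Arnt at 45.1 and 45.9 normalized CPM in control and 41.2 and 41.6 in DMBA (log2 fold change -0.14, adjusted p = 0.36) and the repressor Ahrr at 1.36 and 1.69 normalized CPM in control and 1.34 and 1.24 in DMBA (log2 fold change -0.23, adjusted p = 0.681). Cyp1a2 and Aldh3a1 had no count in the 4 libraries. In all, 10 of the 12 genes of the AhR list were tested, of which 1 was higher and 5 were lower, with a median log2 fold change of -0.70. Over all 16179 genes tested, 24.5% were called higher and 23.3% lower, and the median log2 fold change was 0.07. The counts of every list stand against these shares. Of all 7735 calls, 7728 had groups that did not overlap. A lack of overlap in a called gene, here and below, thus adds little to its call.

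The other cytochromes P450 moved far in both directions. Of 16 tested members of the Cyp2, Cyp3 and Cyp4 families on the list, 3 rose and 10 fell, with a median log2 fold change of -2.67, and 5 rose without DMBA 2. Cyp2c65, at 49.98 and 65.6 normalized CPM in control and 168 and 20.8 in DMBA, was not called with all libraries and had a log2 fold change of -1.5 without DMBA 1 and 1.54 without DMBA 2. Cyp3a11, which oxidises many drugs, went from 190.3 and 247 normalized CPM in control to no count in either DMBA library, at least 722-fold lower against a floor of 3 counts per library. Cyp2b10, a target of the receptor CAR, went from 136 and 182 to no count, at least 525-fold lower. Cyp4f14, a fatty acid hydroxylase, was at 1312 and 1222 in control and 17.9 and 4.49 in DMBA (log2 fold change -6.8, adjusted p = 8.48e-06), and Cyp3a13 at 785 and 885 in control and 88.8 and 63.6 in DMBA (log2 fold change -3.45, adjusted p = 3.2e-06). In both of these genes every DMBA value lay below every control value. Cyp2d34 showed the opposite pattern, with no count in control and 137 and 217 in DMBA, at least 505-fold higher. Its relative Cyp2d26 fell from 266 and 375 to 35.5 and 10.9 (log2 fold change -3.77, adjusted p = 0.00255), and reads shared by members of such families could be divided unevenly between them. Cyp2c55, an arachidonic acid hydroxylase of the colon, rose from 0.791 and 1.32 to 988 and 186 (log2 fold change 9.1, adjusted p = 3.92e-05), and Cyp2e1 from 0.452 and 3.97 to 28 and 12.2 (log2 fold change 3.21, adjusted p = 0.0029).

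Conjugating enzymes were mostly lower, with 3 of 22 higher and 13 lower (median -0.98). Among glutathione transferases, Gsta1 was at 126 and 197 normalized CPM in control and 20.5 and 6.4 in DMBA (log2 fold change -3.56, adjusted p = 0.000429) and Gstm3 at 115 and 178 in control and 25.5 and 18.8 in DMBA (log2 fold change -2.72, adjusted p = 4.01e-05). Sulfotransferases differed among themselves. Sult1b1 fell from 528 and 553 to 107 and 129 (log2 fold change -2.19, adjusted p = 1.31e-05) and Sult2b1, which sulfates cholesterol, from 193 and 243 to 40.6 and 41.9 (log2 fold change -2.4, adjusted p = 3.27e-06). Sult1a1, a phenol sulfotransferase, rose from 4.41 and 5.66 to 235 and 155 (log2 fold change 5.28, adjusted p = 2.17e-06), and Sult1c2 rose from 0.452 and 0.241 to 18.7 and 26.6 (log2 fold change 5.95, adjusted p = 5.04e-06). Neither pair of groups overlapped, as was true of nearly all calls. Ugt2b34, the glucuronosyltransferase with the highest level on the list, was at 836 and 841 normalized CPM in control and 382 and 409 in DMBA (log2 fold change -1.08, adjusted p = 0.00199).

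Of 9 efflux pumps, 3 were higher and 4 lower, a split close to that of all genes in the upward direction. Abcc2, which exports conjugates at the apical membrane, was at 281 and 307 normalized CPM in control and 0.893 and 0.449 in DMBA (log2 fold change -8.7, SE 0.41, adjusted p = 1.19e-06), and Abcc3, its basolateral counterpart, at 72.1 and 87.8 in control and 335 and 223 in DMBA (log2 fold change 1.8, SE 0.24, adjusted p = 0.000228). Thus Abcc2 fell and Abcc3 rose, each without overlap. Abcg2, the breast cancer resistance protein, was at 185 and 177 normalized CPM in control and 55 and 59.4 in DMBA (log2 fold change -1.66, adjusted p = 1.92e-05), and Abcb1a, P-glycoprotein, at 347 and 363 normalized CPM in control and 381 and 263 in DMBA (log2 fold change -0.14, adjusted p = 0.744). The sterol exporters Abcg5 and Abcg8 fell with log2 fold changes of -7.78 and -7.38.

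Targets of Nrf2, the factor that answers to electrophiles and oxidants, were lower in 10 of 15 and higher in 2 (median -0.999). Prdx1, a peroxiredoxin, was at 1341 and 1513 normalized CPM in control and 419 and 484 in DMBA (log2 fold change -1.66, adjusted p = 3.21e-05), and Gsr, glutathione reductase, at 527 and 460 in control and 137 and 143 in DMBA (log2 fold change -1.82, adjusted p = 5.66e-06). Srxn1, sulfiredoxin, was at 432 and 463 in control and 155 and 96.5 in DMBA (log2 fold change -1.83, adjusted p = 8.51e-05). Both DMBA values of these 3 genes were below both control values. Hmox1, heme oxygenase, was higher at 2.15 and 4.58 normalized CPM in control and 6.88 and 7.41 in DMBA (log2 fold change 1.09, adjusted p = 0.00958), a call that was lost without control 1 (log2 fold change 0.63, adjusted p = 0.0502). Slc7a11, the cystine carrier, was at 2.6 and 2.53 normalized CPM in control and 3.75 and 10.1 in DMBA (log2 fold change 1.41, adjusted p = 0.0264) and its call was lost without control 1 (0.115), control 2 (0.124) or DMBA 2 (0.277). Neither rise was called without control 1.

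**Figure D2:**
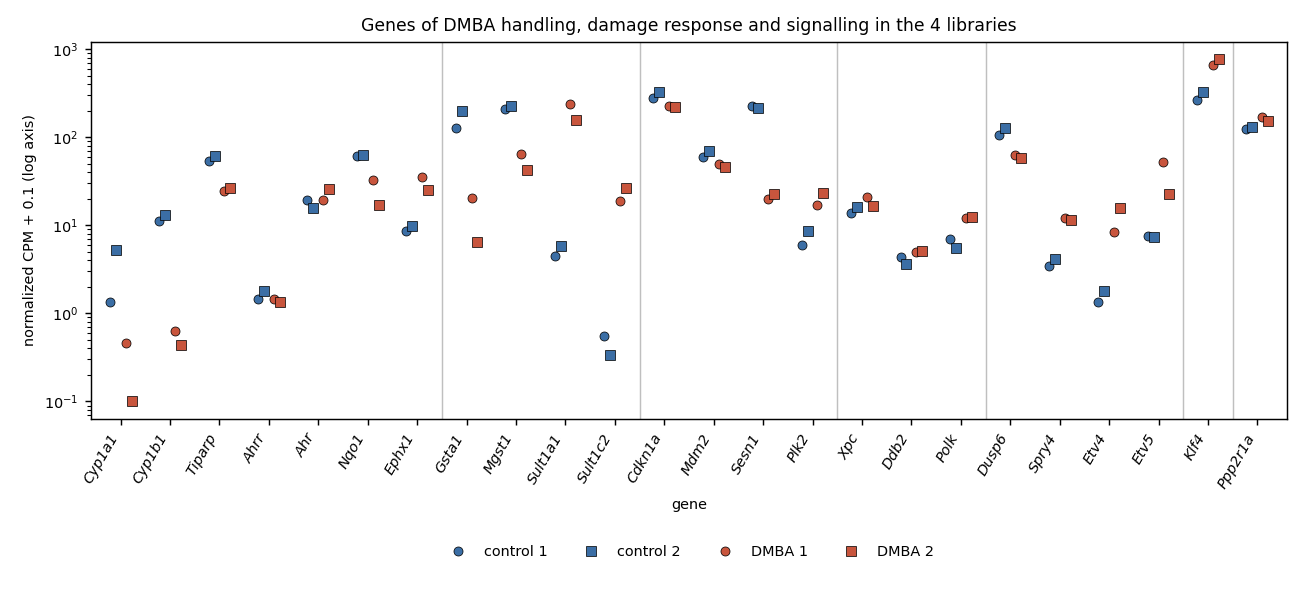
Normalized CPM (plus 0.1, log axis) of 24 genes of carcinogen handling and response in each of the 4 libraries, 1 point per library, coloured by label. Cyp1b1, Tiparp and Nqo1 sit lower in both DMBA libraries, Ephx1 and Sult1a1 sit higher, and Xpc and Ddb2, which did not pass the test, lie close together in all 4 libraries.

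Targets of p53 showed no common direction, with 6 of 20 higher and 6 lower (median 0.14), against 24.5% and 23.3% of all genes tested. Cdkn1a, the inhibitor p21, was at 276 and 329.9 normalized CPM in control and 224 and 223 in DMBA (log2 fold change -0.44, SE 0.13, adjusted p = 0.0194) and Mdm2, the ligase that degrades p53, at 59.6 and 69.6 normalized CPM in control and 49.4 and 45.4 in DMBA (log2 fold change -0.45, SE 0.12, adjusted p = 0.0117). Both were slightly below control, and scaling by library size alone, without TMM, gave -0.13 for Cdkn1a (adjusted p = 0.455) and -0.13 for Mdm2 (0.453). The call of Cdkn1a was lost without control 2 (-0.31, adjusted p = 0.144), as was that of Mdm2 (-0.34, 0.109). Trp53 itself was at 28.8 and 25.7 normalized CPM in control and 25.5 and 22.4 in DMBA (log2 fold change -0.18, adjusted p = 0.379). Sesn1, an oxidative stress gene, fell from 224 and 216 to 20.004 and 22.8 (log2 fold change -3.36, SE 0.21, adjusted p = 2.22e-06) and Pmaip1, the death gene Noxa, from 94.3 and 114 to 13.5 and 22.8 (log2 fold change -2.53, adjusted p = 4.61e-05). Among the genes that rose, Trp53inp1, a promoter of apoptosis, went from 54.4 and 53.5 to 89.1 and 137 (log2 fold change 1.07, adjusted p = 0.000991) and Plk2, a kinase, from 5.88 and 8.55 to 16.8 and 23 (log2 fold change 1.46, adjusted p = 0.00116). With library size scaling, which called 34.5% of all genes higher and 14.0% lower, the list had 7 higher and 2 lower, and without control 2 it had 4 and 2.

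Few genes of excision repair and translesion synthesis passed the test. Of 19 genes, 1 was higher and 3 lower (median -0.06), both shares below those of all genes. The higher one was Polk, the polymerase that bypasses bulky adducts, at 6.9 and 5.42 normalized CPM in control and 12 and 12.2 in DMBA (log2 fold change 0.97, SE 0.22, adjusted p = 0.00569). Without control 2 its log2 fold change was 0.8 with an adjusted p of 0.0577. Rad23b, which helps to find adducts, fell from 222 and 218 to 118 and 126 (log2 fold change -0.85, SE 0.11, adjusted p = 0.000192). The damage sensors Xpc, at 13.7 and 16.1 normalized CPM in control and 21.1 and 16.6 in DMBA (log2 fold change 0.34, adjusted p = 0.21), and Ddb2, at 4.3 and 3.49 normalized CPM in control and 4.91 and 5.05 in DMBA (log2 fold change 0.35, adjusted p = 0.36), did not pass the test. With library size scaling, 3 were higher and 1 was lower, and without control 2 none was higher and 2 were lower.

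Feedback and target genes of the ERK pathway, which transmits EGF signals, were higher in 8 of 18 and lower in 3 (median 0.25). Etv5, a transcription factor, was at 7.46 and 7.23 normalized CPM in control and 52.6 and 22.5 in DMBA (log2 fold change 2.36, SE 0.35, adjusted p = 0.000464), and Etv4 at 1.24 and 1.69 in control and 8.31 and 15.6 in DMBA (log2 fold change 3.01, adjusted p = 0.000249). Spry4, an inhibitor of the pathway, rose from 3.39 and 4.09 to 12.1 and 11.5 (log2 fold change 1.66, adjusted p = 0.000225), while Dusp6, the phosphatase of ERK, fell from 106 and 127 to 62 and 57.8 (log2 fold change -0.96, adjusted p = 0.000668). These 4 genes did not overlap between groups, as was true of nearly all calls. Myc was at 17.5 and 12 normalized CPM in control and 13.4 and 15.9 in DMBA and Ccnd1, cyclin D1, at 113 and 70.3 normalized CPM in control and 84.5 and 44.6 in DMBA, and neither passed the test (adjusted p = 0.966 and 0.165), though Ccnd1 was called lower without DMBA 1 (log2 fold change -1.07, adjusted p = 0.00654). Without control 1 the list had 4 higher and 3 lower, without control 2 it had 5 and 1, and without DMBA 1 it had 6 and 5.

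Immediate early genes, which respond within minutes to growth factors and stress, were higher in 8 of 15 and lower in 4 (median 0.62). With library size scaling 8 were higher and 2 lower. Klf4, a factor of differentiated epithelium, was at 262 and 324 normalized CPM in control and 653 and 772 in DMBA (log2 fold change 1.28, SE 0.17, adjusted p = 0.000223), and Nr4a1 rose from 2.37 and 1.45 to 10.9 and 25.3 (log2 fold change 3.21, adjusted p = 0.00025). Egr1 rose from 12.3 and 10.8 to 22.3 and 24 (log2 fold change 1.0, adjusted p = 0.00199) and Jun from 44.4 and 60.7 to 96.4 and 88.5 (log2 fold change 0.82, adjusted p = 0.00129). Zfp36, which destabilises cytokine mRNA, fell from 148 and 215 to 63.6 and 59.6 (log2 fold change -1.56, adjusted p = 0.000368). Fos was at 173 and 247 normalized CPM in control and 126 and 135 in DMBA (log2 fold change -0.69, adjusted p = 0.0239), a call lost without control 2 (-0.42, 0.211) or DMBA 1 (-0.66, 0.0689). Without control 2 the list had 7 higher and 1 lower. The summed level of 12 smooth muscle genes was 3840 and 3389 normalized CPM in control and 16350 and 9685 in DMBA, and its part in this result was not tested.

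Of 17 genes of PP2A subunits and inhibitors, 4 were higher and 4 lower (median -0.02), shares close to the 24.5% and 23.3% of all genes. Ppp2r5d, a regulatory subunit, fell from 119.9 and 111 to 63.2 and 49.4 (log2 fold change -1.04, SE 0.14, adjusted p = 0.000233), and Ppp2r5e rose from 44.1 and 38.2 to 58.9 and 69.2 (log2 fold change 0.64, SE 0.13, adjusted p = 0.00342). The Ppp2r5e call was lost without control 2 (0.53, adjusted p = 0.0501). The catalytic subunit gene Ppp2ca was at 215 and 236 normalized CPM in control and 236 and 236 in DMBA (log2 fold change 0.07, adjusted p = 0.636). Set, an inhibitor of PP2A, was lower at 367 and 329 in control and 196 and 206 in DMBA (log2 fold change -0.79, adjusted p = 0.000746), as was Cip2a, another inhibitor, at 51 and 46.4 in control and 14.8 and 25.5 in DMBA (log2 fold change -1.28, adjusted p = 0.00198). The list had no higher call without control 2 and 2 without control 1 or DMBA 1, and library size scaling gave 6 higher and 3 lower.

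**Figure D3:**
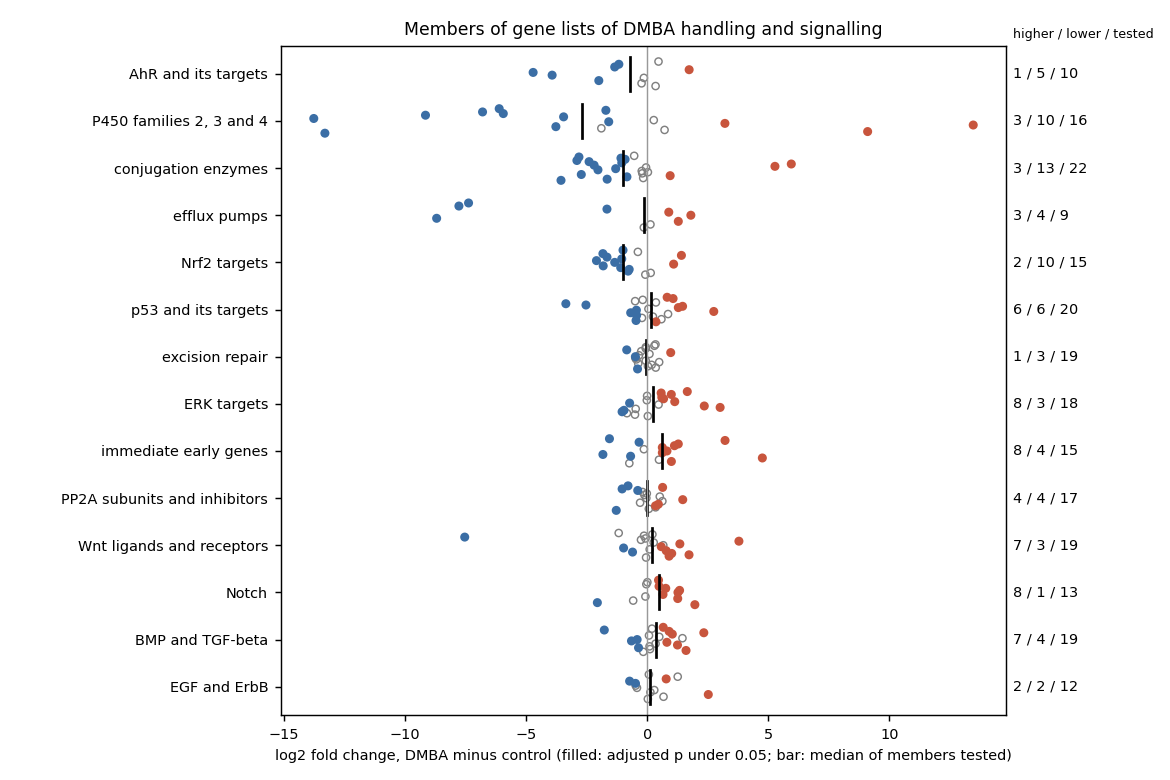
Log2 fold change of DMBA over control for the tested members of 14 lists of pathways, 1 point per gene, with the median of each list as a bar and called genes marked by colour. P450 genes range from -13.77 to 13.46, while excision repair genes lie between -0.85 and 0.97.

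Across all genes the groups lay far apart. Of 16179 genes tested, 7735 (47.8%) passed the threshold of 0.05, 3961 higher in DMBA and 3774 lower, and 4395 (27.2% of the genes tested) also differed by at least 2-fold, 2675 up and 1720 down. Values of the groups did not overlap in 12053 genes, or 74.5%, and in 7728 of the 7735 calls. At least 8-fold differences were called in 506 genes that rose and 392 that fell. Of the 7735 calls, 4489 (58.0%) were kept in each of the 4 fits without 1 library. Without control 2, 2424 genes were called higher. Scaling by library size alone moved the median log2 fold change of all genes by 0.309, from 0.07 to 0.38, and the share of calls that were higher from 51.2% to 71.2%. The 22 calls that it turned had log2 fold changes of at most 0.311 in size, about that shift.

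Among called genes whose control libraries lay within 4-fold of each other, those with the largest falls were genes of small intestinal enterocytes and Paneth cells. Apoa4, an apolipoprotein of chylomicrons, went from 1628 and 2473 normalized CPM to no count, at least 6781-fold lower. Apoa1, the main protein of HDL, went from 8826 and 9957 to 0.179 and 0, a ratio of 94210-fold with a 95% counting interval of 26080 to 777900. Slc2a2, the basolateral glucose carrier, went from 397 and 514 to no count, at least 1507-fold lower, and Enpp7, which digests sphingomyelin, from 733 and 565 to no count, at least 2146-fold lower. All 4 of these genes were at or near 0 in DMBA. The Paneth cell defensins Defa17 and Defa29 were at 944 and 918 and at 558 and 770.3 in control with no count in DMBA, bounds of 3079-fold and 2197-fold. The defensin genes Defa35, AY761184 and Gm15292 also had no count in DMBA, with bounds of 2535, 1755 and 869.5-fold. Defensin genes are close copies of one another, so reads may have been divided unevenly among them.

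Among called genes whose DMBA libraries lay within 4-fold of each other, those with the largest rises had few or no counts in control. Wfdc2, a secreted protease inhibitor, went from no count to 76.3 and 155 normalized CPM, at least 329.8-fold higher. Lpo, lactoperoxidase, went from 0.113 and 0 to 265 and 256, a ratio of 4479-fold with a 95% counting interval of 804 to 177000. Slc6a14, an amino acid carrier, went from 0.226 and 0.241 to 492 and 585, a ratio of 2286-fold with a 95% counting interval of 892 to 8391. Hao2, a hydroxyacid oxidase, went from 0.226 and 0.12 to 138 and 239, a ratio of 1044-fold with a 95% counting interval of 357 to 5063, and Aqp8, a water channel of colon epithelium, from 0 and 0.602 to 290.1 and 583 (log2 fold change 10.47, SE 0.82, adjusted p = 1.93e-05). Control did not exceed 1 normalized CPM in any of these 5 genes. Gm53 had no count in control and 51 and 39.2 in DMBA, at least 129-fold higher, and Foxd2, a forkhead factor, 45.5 and 42.1, at least 125-fold higher.

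FPKM, which divides counts by gene length, was used to rank genes by the mean of a group's libraries. In control 1 and control 2 the first were Fabp2 with 13260.5 and 12053.0 FPKM, Defa24 with 13179.0 and 11984.2 and Apoa1 with 9262.0 and 10099.8. In DMBA 1 and DMBA 2 they were Clca1, a goblet cell protein, with 8250.9 and 31219.6 FPKM, Muc2 with 11922.4 and 9935.1 and Retnlb with 7586.6 and 12195.0. Neither DMBA library had this order by itself, and Mptx1, at 526.1 FPKM in DMBA 1, exceeded Muc2 and Retnlb in DMBA 2 with 16706.5. The mitochondrial gene mt-Co1 was in the first 4 of both groups, from 8012.1 to 9352.5 FPKM.

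Genes that mark position along the gut differed by large folds. Hox genes pattern the body from front to back, and those with high numbers mark its hind part. Of 18 tested Hox genes numbered 5 to 13, 12 were higher and 1 was lower, with a median log2 fold change of 4.52. Among those numbered 9 to 13, 9 of 10 were higher and none lower, and among those numbered 5 to 8, 3 of 8 were higher and Hoxc8 was lower. Hoxa10 and Hoxa13 had no count in control and were at 55 and 37.1 and at 39.9 and 51 normalized CPM in DMBA, at least 131-fold and 129.8-fold higher. Hoxb9 went from 0.113 and 0.12 to 58.6 and 33.5, a ratio of 407-fold with a 95% counting interval of 112 to 3365. Hoxb13, the most posterior gene of its cluster, differed between the DMBA libraries, at 2.59 and 186 normalized CPM, and Hoxd13 had 95 counts in DMBA 2 and none elsewhere. The call of Hoxb13 (log2 fold change 8.95, adjusted p = 0.0216) was lost without control 1 (adjusted p = 0.137), without control 2 (0.12) and without DMBA 2 (log2 fold change 3.76, 0.109). Hoxb6, at 32.6 and 1.91, and Hoxb8, at 10.3 and 0.225, were high in DMBA 1 alone. The list had 15 higher without DMBA 2 and 8 or 9 without any of the other 3 libraries.

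Among transcription factors of gut segments, Gata4, which sets jejunal identity, was at 136 and 153 normalized CPM in control and 2.23 and 0.112 in DMBA (log2 fold change -6.82, SE 0.74, adjusted p = 0.00012), and Gata5 at 59.9 and 52.8 in control and 0.536 and 0 in DMBA (log2 fold change -7.5, adjusted p = 3.46e-06). Hnf4g, a factor of enterocytes, fell from 374 and 329.5 to 21.6 and 15.7 (log2 fold change -4.23, adjusted p = 1.37e-06), and Creb3l3, which regulates lipid secretion, from 518 and 685 to 12.1 and 9.996 (log2 fold change -5.76, adjusted p = 3.27e-07). Cdx1, a factor more abundant toward the colon, rose from 115 and 91.1 to 296 and 290 (log2 fold change 1.51, adjusted p = 4.06e-05). None of these 5 genes overlapped between groups, as was true of nearly all calls. Cdx2, at 159 and 167 normalized CPM in control and 265 and 183 in DMBA, and Hnf4a, at 975 and 941 normalized CPM in control and 803 and 729 in DMBA, which all intestinal epithelium expresses, did not pass the test (adjusted p = 0.068 and 0.15), though Cdx2 was called higher without DMBA 2 (log2 fold change 0.69, adjusted p = 0.00498).

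Digestion and uptake genes were lower almost throughout. Of 17 tested brush border hydrolases, 16 fell and none rose (median -6.70). Sis, sucrase-isomaltase, was at 4099 and 4235 normalized CPM in control and 2.32 and 0 in DMBA (log2 fold change -11.68, SE 0.99, adjusted p = 3.02e-05), and Lct, lactase, went from 1279.6 and 1555 to 0.268 and 0, a ratio of 9467-fold with a 95% counting interval of 3239 to 45910. Anpep, an aminopeptidase, fell from 8839.7 and 10681 to 4.91 and 8.54 (log2 fold change -10.51, adjusted p = 1.24e-07), while Mep1a, a meprin, was at 213 and 115 normalized CPM in control and 302 and 149 in DMBA (log2 fold change 0.46, adjusted p = 0.312) and was called higher without DMBA 2 (0.87, adjusted p = 0.0409). Of 16 genes of fat absorption, 15 fell and 1 rose (median -7.64). Fabp2, the intestinal fatty acid binding protein, kept 616 and 288 normalized CPM in DMBA, from 14889.6 and 14000.4 in control (log2 fold change -5.0, adjusted p = 1.67e-05). Mttp, which loads chylomicrons, fell from 3368 and 4151 to 1.43 and 2.36 (log2 fold change -10.97, adjusted p = 1.71e-07), and Scarb1, a receptor for HDL, was the gene that rose, from 4.64 and 6.74 to 21.7 and 15.8 (log2 fold change 1.73, adjusted p = 0.000592).

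Sugar handling genes fell in 9 of 10 and amino acid carriers in 11 of 12, with medians of -5.31 and -5.18. Slc5a1, the sodium-glucose carrier, was at 3831 and 4346 normalized CPM in control and 129 and 160.3 in DMBA (log2 fold change -4.82, SE 0.21, adjusted p = 4.05e-07), and Slc6a19, the main neutral amino acid carrier, at 1319.8 and 1397 in control and 0.893 and 0.337 in DMBA (log2 fold change -11.01, SE 0.29, adjusted p = 9.61e-08). The exceptions were Pck1, a gluconeogenic enzyme, at 106 and 139 normalized CPM in control and 136 and 214 in DMBA (log2 fold change 0.51, adjusted p = 0.142), and Slc1a1, a glutamate carrier, at 48.2 and 34.1 normalized CPM in control and 19.4 and 38.1 in DMBA (log2 fold change -0.53, adjusted p = 0.16). Without DMBA 1, Pck1 was called higher (log2 fold change 0.78, adjusted p = 0.0405), and without DMBA 2, Slc1a1 was called lower (-1.09, 0.00385). Of 7 genes of bile acid uptake in the ileum, 2 were lower. Slc51a, a subunit of the bile acid exporter, was at 356 and 330.1 normalized CPM in control and 51.5 and 0.562 in DMBA (log2 fold change -3.7, adjusted p = 0.0395), a call that was lost without control 1 (adjusted p = 0.112) or control 2 (0.107), with DMBA 2 far below DMBA 1. Fgf15 had 0 counts in every control and DMBA library, and Fabp6, the ileal bile acid binding protein, was at 2.83 and 0.241 normalized CPM in control and 1.16 and 1.01 in DMBA.

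Genes of ion and water transport in the colon moved the other way, with 13 of 16 tested higher and none lower (median 2.61). Fewer were called higher without control 1, control 2 or DMBA 2. Car1, a carbonic anhydrase, had no count in control and 6086 and 1145 normalized CPM in DMBA. By the mean of these values, which are 5.3-fold apart, it was at least 10320-fold higher. Aqp4, a water channel, rose from 40.6 and 46 to 644 and 1252 (log2 fold change 4.45, adjusted p = 8.75e-05), and Slc26a2, a sulfate carrier, from 316 and 247 to 683 and 671 (log2 fold change 1.27, adjusted p = 0.000254). Scnn1a, a subunit of the epithelial sodium channel, rose from 6.11 and 5.06 to 61.8 and 144 (log2 fold change 4.19, adjusted p = 0.000282), and Hsd11b2, which protects the mineralocorticoid receptor from glucocorticoids, from 4.52 and 2.65 to 91.1 and 83.3 (log2 fold change 4.59, adjusted p = 8.22e-06). Every DMBA value of these genes exceeded every control value. Atp12a, a proton pump of the distal colon, was at 8.66 in DMBA 1 and 288 in DMBA 2 with no count in control. The chloride channel Cftr was at 132 and 129 normalized CPM in control and 117 and 118 in DMBA (log2 fold change -0.15, adjusted p = 0.395). Of 9 iron genes, 2 were higher and 4 lower (1 and 4 without control 1), and Slc40a1, the iron exporter ferroportin, rose from 11.2 and 10.4 to 161 and 134 (log2 fold change 3.77, adjusted p = 3.34e-05).

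**Figure D4:**
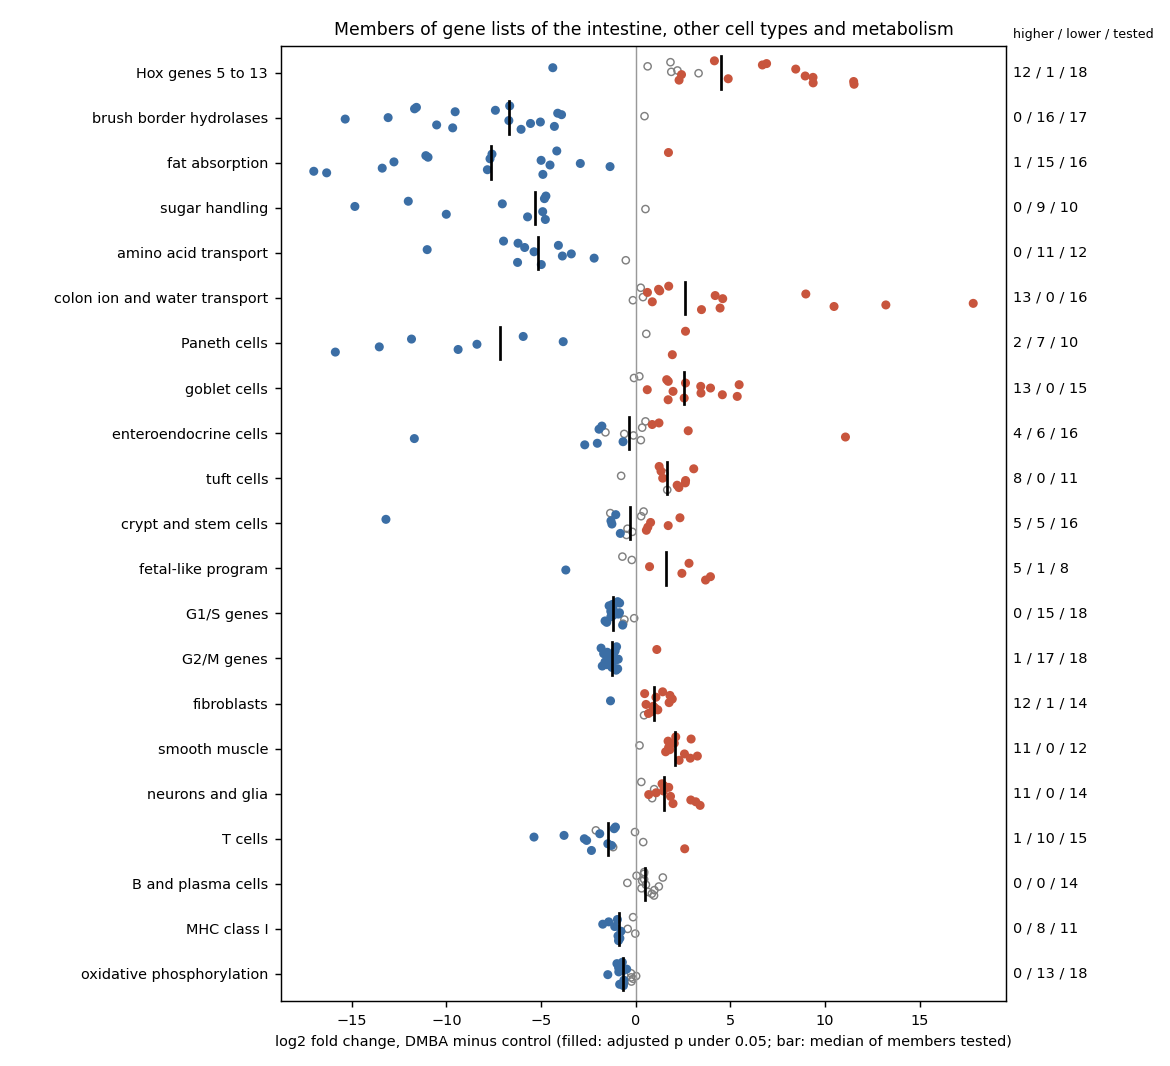
Log2 fold change of DMBA over control for the tested members of 21 lists of gut segments and cell types, 1 point per gene, with the median of each list as a bar and called genes marked by colour. Medians of the lists of brush border hydrolases, fat absorption, sugar handling and amino acid carriers lie far below 0. Those of the Hox, colon, goblet and smooth muscle lists lie above 0, and list medians range from -7.64 to 4.52.

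Most markers of Paneth cells, which secrete antimicrobial peptides at the base of small intestinal crypts, were lower. Of 10 tested, 7 fell and 2 rose (median -7.16). Lyz1, lysozyme, was at 8838 and 7021 normalized CPM in control and 1.07 and 3.37 in DMBA (log2 fold change -11.84, SE 0.51, adjusted p = 3.42e-07), and Defa24, a defensin, at 6425 and 6044 in control and 0 and 1.12 in DMBA (log2 fold change -13.54, SE 0.74, adjusted p = 1.08e-06). The genes that rose are not confined to Paneth cells. Sox9, a factor of progenitors and several lineages, rose from 12.8 and 12.3 to 76 and 79 (log2 fold change 2.63, adjusted p = 1.83e-06), and Ang4, a ribonuclease also made by goblet cells, was at 1318 and 1261 normalized CPM in control and 2081 and 7751 in DMBA (log2 fold change 1.93, adjusted p = 0.0308). The call of Ang4 was lost without control 1 (0.139), without control 2 (0.153) and without DMBA 2 (log2 fold change 0.68, 0.32). Reg lectins were lower in 3 of 6 tested, while another 3 were called higher without DMBA 1 and 5 were lower without DMBA 2, with Reg3g at 2596 and 1886 normalized CPM in control and 50.1 and 4.94 in DMBA (log2 fold change -6.33, adjusted p = 0.000407) and Reg3b at 5076 and 2979 in control and 207 and 65.1 in DMBA (log2 fold change -4.89, adjusted p = 0.00034).

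Goblet cell genes, which make and process mucus, were higher in 13 of 15 and lower in none (median 2.56). Fewer were called higher without control 1, control 2 or DMBA 2. Clca1, a secreted protease, was at 1401 and 1115 normalized CPM in control and 11186 and 48657 in DMBA (log2 fold change 4.57, SE 0.64, adjusted p = 0.00034). Retnlb, a resistin-like cytokine, rose from 172 and 134 to 4718 and 8719 (log2 fold change 5.46, adjusted p = 3.85e-06). Spdef and Creb3l1, factors of goblet cell maturation, rose from 18.7 and 14.9 to 112 and 95.4 (log2 fold change 2.63, adjusted p = 1.43e-05) and from 10.9 and 11.2 to 104 and 136 (log2 fold change 3.44, adjusted p = 1.82e-06). All these DMBA values were above those of control. Tff3, a trefoil peptide, at 1417 and 1284 normalized CPM in control and 692 and 1841 in DMBA, and Zg16, a lectin of mucus, at 2090.5 and 1802 normalized CPM in control and 1568 and 2869 in DMBA, did not pass the test (adjusted p = 0.853 and 0.638), though Tff3 was called lower without DMBA 2 (log2 fold change -0.97, adjusted p = 0.00252). Of 6 tested mucins of the membrane, 5 were higher and 1 lower. Muc4 rose from 34.1 and 31.2 to 200 and 109 (log2 fold change 2.24, adjusted p = 0.000396), and Muc13 fell from 2719.7 and 2993 to 1173 and 1971 (log2 fold change -0.86, adjusted p = 0.00877), with -0.8 and an adjusted p of 0.0613 without control 2.

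Among enteroendocrine genes, 4 of 16 tested were higher and 6 lower (median -0.36), against 24.5% and 23.3% of all genes tested. Gip, the incretin of the upper small intestine, went from 53.8 and 49.5 to no count, at least 171-fold lower, and Cck fell from 7.35 and 9.15 to 1.88 and 0.562 (log2 fold change -2.69, adjusted p = 0.00113). Insl5, a hormone of the colon, went from no count to 8.31 and 59.5. By the mean of these values, which lie far apart, it was at least 96.8-fold higher. Pyy, made in ileum and colon, rose from 3.51 and 2.29 to 16.1 and 23.9 (log2 fold change 2.77, adjusted p = 7.77e-05). Chga, the granule protein chromogranin A, was at 66 and 50.9 normalized CPM in control and 14.4 and 14.3 in DMBA (log2 fold change -2.03, SE 0.23, adjusted p = 8.36e-05). Tuft cells, which sense luminal compounds, had 8 of 11 tested genes higher and none lower (median 1.66). Dclk1 rose from 4.97 and 4.22 to 28.8 and 27.7 (log2 fold change 2.62, adjusted p = 1.13e-05) and Sh2d6 from 1.13 and 0.964 to 9.73 and 7.97 (log2 fold change 3.06, adjusted p = 0.000144), with no overlap.

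Of 16 genes of crypt stem cells, 5 were higher and 5 lower (median -0.31), against 24.5% and 23.3% of all genes tested. Olfm4, a stem cell protein of the small intestine, went from 632 and 589 to 0.0893 and 0, a ratio of 12290-fold with a 95% counting interval of 2205 to 485400. Smoc2 fell from 48.6 and 43.7 to 19.4 and 25.2 (log2 fold change -1.06, adjusted p = 0.00124), and Axin2, a target of Wnt, from 31.4 and 25.4 to 18.5 and 13.7 (log2 fold change -0.82, adjusted p = 0.00389). Prom1 rose from 78.5 and 73.6 to 397 and 369 (log2 fold change 2.33, SE 0.14, adjusted p = 2.02e-06) and Lrig1, a brake on ErbB receptors, from 64.2 and 48.7 to 95.3 and 99.2 (log2 fold change 0.78, adjusted p = 0.00618). Ascl2, a master factor of Lgr5-positive cells, was at 2.26 and 1.57 normalized CPM in control and 1.07 and 1.68 in DMBA (log2 fold change -0.49, adjusted p = 0.396). Library size scaling gave 6 higher and 2 lower, and leaving out control 1, control 2 or DMBA 1 left 3, 2 and 3 higher. The Lrig1 call was lost without control 2 (adjusted p = 0.0832). Genes of fetal-like or regenerating epithelium were higher in 5 of 8 tested. Of the 12 listed, Ctgf, Cyr61 and Trop2 were not found under these names and were not examined. Ly6a, the antigen Sca-1, was at 113 and 111 normalized CPM in control and 720 and 849.8 in DMBA (log2 fold change 2.81, SE 0.14, adjusted p = 6.57e-07), and Anxa1, an annexin, rose from 12.2 and 13.2 to 147 and 181 (log2 fold change 3.69, adjusted p = 3.6e-06). Il33, an alarmin, fell from 49.1 and 48.4 to 5.18 and 2.13 (log2 fold change -3.69, adjusted p = 5.06e-05).

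Genes of the cell cycle were lower almost throughout. Of 18 genes of the G1/S transition, 15 fell and none rose (median -1.20), and of 18 genes of G2 and mitosis, 17 fell and 1 rose (median -1.25). Pcna, the clamp of DNA polymerase, was at 218 and 229 normalized CPM in control and 76.6 and 111 in DMBA (log2 fold change -1.25, SE 0.16, adjusted p = 0.000203), and Mcm6, a helicase subunit, at 74.5 and 73.9 in control and 33.3 and 29.7 in DMBA (log2 fold change -1.24, adjusted p = 7.09e-05). Mki67, the antigen Ki-67, was at 294 and 272 in control and 113 and 153 in DMBA (log2 fold change -1.09, adjusted p = 0.000811), and Top2a, topoisomerase II, at 352 and 311 in control and 87.9 and 98.6 in DMBA (log2 fold change -1.83, SE 0.17, adjusted p = 3.1e-05). Both DMBA values of these genes were below both control values. Plk1, a mitotic kinase, was the gene that rose, from 28.5 and 23.4 to 54.1 and 58.1 (log2 fold change 1.11, SE 0.17, adjusted p = 0.00049).

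Among Wnt ligands, receptors and inhibitors, 7 of 19 tested were higher and 3 lower (median 0.21). Wnt3, the ligand that Paneth cells supply, went from 4.18 and 1.57 to no count, at least 9.51-fold lower. The receptor Fzd1 rose from 9.84 and 8.43 to 28.2 and 32.5 (log2 fold change 1.73, adjusted p = 3.49e-05), the coreceptor Lrp6 from 86 and 77.2 to 114 and 130.3 (log2 fold change 0.58, adjusted p = 0.0025), and the coreceptor Lrp5 fell from 88.2 and 84.2 to 43.3 and 44.4 (log2 fold change -0.98, adjusted p = 0.000146). In the Notch pathway, 8 of 13 tested were higher and 1 lower (median 0.49). Atoh1, the factor of secretory fate, was at 14.6 and 14.2 normalized CPM in control and 46 and 66.9 in DMBA (log2 fold change 1.97, SE 0.23, adjusted p = 0.000119), and Hes1, a Notch target that represses Atoh1, at 20.6 and 13.5 in control and 42.3 and 39.4 in DMBA (log2 fold change 1.26, SE 0.23, adjusted p = 0.00174). Dll1, a ligand, fell from 24.9 and 29 to 5.98 and 6.96 (log2 fold change -2.06, adjusted p = 3.84e-05). Thus both Atoh1 and Hes1 rose, without overlap. The Notch list had 5 higher without control 1 or DMBA 1 and 4 without control 2.

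BMP and TGF-beta genes were higher in 7 of 19 and lower in 4 (11 and 1 with library size scaling). Bmp4, made by stromal cells, rose from 8.82 and 7.95 to 27.5 and 23.5 (log2 fold change 1.6, adjusted p = 0.000403), and Id1, a target of BMP, from 86.4 and 97.8 to 156 and 168 (log2 fold change 0.81, adjusted p = 0.000468). Tgfb2 rose from 2.71 and 1.81 to 13.8 and 9.21 (log2 fold change 2.34, adjusted p = 0.00118), and Tgfbi, a matrix protein, fell from 302 and 316 to 102 and 79.4 (log2 fold change -1.77, adjusted p = 1.62e-05). The list had 2 lower without control 1 and 1 without control 2. In the EGF family, 2 of 12 tested were higher and 2 lower, with 4 higher and none lower under library size scaling, and none was called without control 2. Egfr was at 41.9 and 43.6 normalized CPM in control and 43.1 and 50.7 in DMBA (log2 fold change 0.13, adjusted p = 0.547) and Erbb3 at 309.7 and 328 normalized CPM in control and 247 and 228 in DMBA (log2 fold change -0.42, adjusted p = 0.0945).

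Genes that the study used as markers of epithelial-mesenchymal transition were partly genes of connective tissue. Fn1, fibronectin, was at 151 and 149 normalized CPM in control and 584 and 559.6 in DMBA (log2 fold change 1.93, SE 0.23, adjusted p = 0.000128), and Vim, vimentin, at 48.8 and 54.9 normalized CPM in control and 152 and 126 in DMBA (log2 fold change 1.42, SE 0.15, adjusted p = 5.11e-05). Both rose and both are also on the fibroblast list, of whose other 12 members 10 rose, and the part of fibroblast RNA in these rises was not tested. Snai1 was at 0.452 and 0.361 normalized CPM in control and 1.16 and 0.898 in DMBA (log2 fold change 1.32, adjusted p = 0.0726) and Twist1 at 1.36 and 0.723 normalized CPM in control and 3.75 and 1.35 in DMBA (log2 fold change 1.3, adjusted p = 0.166), and neither passed the test. Snai2 was at 0.904 and 1.32 normalized CPM in control and 2.68 and 2.47 in DMBA (log2 fold change 1.2, adjusted p = 0.0419), and its call was lost without control 1 (0.212), control 2 (0.0813), DMBA 1 (0.135) or DMBA 2 (0.0769). The study named these genes for organoid RNA of this experiment, comparing DMBA plus tamoxifen with its other groups rather than DMBA with control. Their choice is therefore not independent evidence of a direction.

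Of 12 general epithelial genes, 3 were higher and 5 lower (median -0.18), against 24.5% and 23.3% of all genes tested. Cdh1, E-cadherin, was at 776 and 789.6 normalized CPM in control and 706 and 827 in DMBA (log2 fold change -0.03, adjusted p = 0.883), and Vil1, villin of the brush border, at 3826 and 4028 normalized CPM in control and 826 and 700.4 in DMBA (log2 fold change -2.36, SE 0.14, adjusted p = 2.09e-06). Krt18 rose from 229 and 235 to 496 and 702 (log2 fold change 1.37, adjusted p = 0.00128) and Krt20, a keratin of differentiated cells, fell from 3068 and 3421 to 1315 and 1103 (log2 fold change -1.42, adjusted p = 0.00493). Of 15 tested genes of tight junctions, 4 were higher and 6 lower (6 and 4 with library size scaling, 2 and 6 without control 1). Cldn8, a claudin of the colon, rose from 0.565 and 0.602 to 21.2 and 71.1 (log2 fold change 6.26, adjusted p = 0.000238), and Cldn15, a pore-forming claudin of the small intestine, fell from 597 and 746 to 186 and 122 (log2 fold change -2.12, adjusted p = 0.000212). Among 10 tested keratins, 5 were higher and 2 lower (3 and 2 without control 1, control 2 or DMBA 1), with Krt17 at no count in control and 15.4 and 7.53 in DMBA, at least 32.8-fold higher.

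Genes of smooth muscle were higher in 11 of 12 and lower in none (median 2.07). Fewer of them, and of the basement membrane genes below, were called higher without control 1, control 2 or DMBA 1. Every DMBA value of Tagln and Acta2 exceeded every control value. Tagln, transgelin, was at 199.9 and 179 normalized CPM in control and 1649.5 and 1224 in DMBA (log2 fold change 2.92, SE 0.3, adjusted p = 5.17e-05), and Acta2, smooth muscle actin, at 281 and 254 in control and 1591 and 1025 in DMBA (log2 fold change 2.29, adjusted p = 0.000173). Fibroblast genes were higher in 12 of 14 and lower in 1 (median 0.97), with 7 higher without control 2, and had Col6a1, a collagen, at 102 and 92.6 in control and 214 and 180.3 in DMBA (log2 fold change 1.02, adjusted p = 0.00049). Basement membrane genes were higher in 10 of 12 and lower in none (median 1.00), with Hspg2, perlecan, at 99.4 and 81.5 in control and 234 and 189.9 in DMBA (log2 fold change 1.23, adjusted p = 0.000291). Neuronal and glial genes were higher in 11 of 14 (median 1.47), with Stmn2, a neuronal tubulin regulator, at 5.88 and 4.09 in control and 20.5 and 12.9 in DMBA (log2 fold change 1.74, adjusted p = 0.00108). Without control 1 the neuronal list had 7 higher, and without control 2 also 7.

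Endothelial genes were higher in 3 of 12, close to the 24.5% of all genes (8 with library size scaling, 1 or 2 without control 1, control 2 or DMBA 1, and 5 without DMBA 2), with Vwf, von Willebrand factor, at 14 and 13.9 in control and 27.9 and 26.3 in DMBA (log2 fold change 0.96, adjusted p = 0.00138). Macrophage genes were higher in 4 of 11 tested (10 with library size scaling, and 1 without control 1), with Cd14 at 9.27 and 8.67 in control and 30.8 and 43.9 in DMBA (log2 fold change 2.05, adjusted p = 3.01e-05). Fat cell genes were higher in 6 of 12 and lower in 2, with 2 higher without control 1 or DMBA 1, 7 without control 2 and 8 without DMBA 2. Adipoq, adiponectin, was at 0.452 and 6.26 normalized CPM in control and 18.3 and 7.97 in DMBA (log2 fold change 2.01, adjusted p = 0.072), and was called without control 2 (4.82, adjusted p = 0.0213) and without DMBA 2 (2.46, 0.0358). Kit, which mast cells and pacemaker cells express, rose from 14.9 and 11.3 to 75 and 66 (log2 fold change 2.42, adjusted p = 5.72e-06) and was the 1 gene of 10 called on the mast cell list, where 3 were higher without DMBA 2 or with the replicate block and 2 with DESeq2 or library size scaling. The 10 tested skeletal muscle genes and the 4 globin genes had no call by edgeR, nor an unadjusted p under 0.05, but DESeq2 called 1 skeletal muscle gene higher and the fit of only the 4 libraries 2 higher and 1 lower. Levels were low, with Acta1 at 1.13 and 1.32 normalized CPM in control and 7.86 and 6.07 in DMBA and Hba-a1 at 8.03 and 18.7 normalized CPM in control and 16.6 and 13.8 in DMBA.

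T cell genes were lower in 10 of 15 tested and higher in 1 (median -1.48). Gzma, granzyme A of intraepithelial lymphocytes, was at 83.4 and 95.1 normalized CPM in control and 2.14 and 2.13 in DMBA (log2 fold change -5.37, SE 0.48, adjusted p = 2.19e-05), and Cd8a at 18 and 20.2 in control and 3.57 and 2.13 in DMBA (log2 fold change -2.72, SE 0.27, adjusted p = 3.66e-05). Cd7 fell from 7.8 and 12.3 to 1.52 and 1.8 (log2 fold change -2.59, adjusted p = 0.00019), while Cd4 was at 2.6 and 3.49 normalized CPM in control and 3.13 and 4.94 in DMBA (log2 fold change 0.39, adjusted p = 0.34). Library size scaling gave 7 lower and 1 higher. Genes of B and plasma cells had no call in 14 tested by edgeR (none at an unadjusted p under 0.05) or by DESeq2, with 1 higher under library size scaling and 7 higher when genes with low counts were kept. Their summed level was 4084 and 4729 normalized CPM in control and 3090.0 and 8614 in DMBA, on either side of control. Jchain, the joining chain, was at 594 and 695 normalized CPM in control and 451 and 1301 in DMBA (log2 fold change 0.44, adjusted p = 0.384), with a log2 fold change of 0.99 without DMBA 1 (adjusted p = 0.00522). The list had 9 higher without DMBA 1 and 6 lower without DMBA 2.

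Genes of MHC class I presentation were lower in 8 of 11 and higher in none (median -0.91). B2m, the light chain, was at 1964 and 2251 normalized CPM in control and 1174 and 1069 in DMBA (log2 fold change -0.91, SE 0.14, adjusted p = 0.000656), and Psmb9, a subunit of the immunoproteasome, at 253 and 288 in control and 90.8 and 70.5 in DMBA (log2 fold change -1.74, SE 0.21, adjusted p = 0.000142). MHC class II genes were lower in 2 of 10, in 6 without DMBA 1 and in none without control 2. Cd74, the invariant chain, was at 729.8 and 820.1 normalized CPM in control and 628 and 255 in DMBA (log2 fold change -0.81, adjusted p = 0.0844), and without DMBA 1, which is the higher of its DMBA values, it had -1.63. Interferon-stimulated genes were lower in 10 of 18 and higher in 4 (median -0.56). Isg15 was at 307 and 439 normalized CPM in control and 115 and 104 in DMBA (log2 fold change -1.77, SE 0.17, adjusted p = 3.73e-05), and Usp18 at 167 and 235 in control and 44.2 and 39.3 in DMBA (log2 fold change -2.27, adjusted p = 1.3e-05). Gbp2, a guanylate-binding protein, rose from 24.8 and 24.6 to 49.6 and 97.3 (log2 fold change 1.57, adjusted p = 0.00118), and it was 1 of 4 higher members of the list, which had 1 without control 1.

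Of 17 genes of inflammation, 5 were higher and 1 lower (8 and 1 with library size scaling, 3 and 1 without control 2). Saa1, serum amyloid A, was at 1.13 and 1.08 normalized CPM in control and 261 and 558 in DMBA (log2 fold change 8.51, SE 0.52, adjusted p = 2.22e-06), and Duox2, an oxidase of the epithelium, at 92.4 and 51.9 normalized CPM in control and 132 and 244 in DMBA (log2 fold change 1.38, adjusted p = 0.00557). Without control 2, Duox2 had 1.01 and an adjusted p of 0.0581. Ptgs2, cyclooxygenase-2, rose from 3.28 and 3.13 to 15.9 and 8.76 (log2 fold change 1.95, adjusted p = 0.000999), and Nos2, inducible nitric oxide synthase, was at 34.9 and 26.1 normalized CPM in control and 4.55 and 13 in DMBA (log2 fold change -1.82, adjusted p = 0.00468). Il6 had no count beyond DMBA 2, where it was at 0.112, and S100a8, a neutrophil protein, was at or below 0.226 in all 4 libraries.

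In sterol synthesis, 6 of 19 genes were higher and 2 lower (median 0.10). Srebf2, the factor that drives the pathway, rose from 133 and 129 to 214 and 206 (log2 fold change 0.68, adjusted p = 0.000978) and Sc5d, a desaturase, fell from 138 and 135 to 59.5 and 72.3 (log2 fold change -1.05, adjusted p = 0.000743). The sterol list had 3 higher and 1 lower without control 1, 2 and 2 without control 2, and 4 and 4 without DMBA 2. Of 17 genes of fatty acid oxidation and ketone synthesis, 3 were higher and 9 lower. Angptl4, a lipase inhibitor, fell from 64 and 56.6 to 6.88 and 3.48 (log2 fold change -3.51, adjusted p = 2.59e-05).

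Of 18 genes of glycolysis and hypoxia, 4 were higher and 8 lower (median -0.30), against 24.5% and 23.3% of all genes tested. With library size scaling 6 were higher and 5 lower, against 34.5% and 14.0% of all genes. Hk1, a hexokinase, was at 18.3 and 19.4 normalized CPM in control and 212 and 212 in DMBA (log2 fold change 3.49, SE 0.15, adjusted p = 3.27e-07), Hk2 rose from 42.7 and 42.5 to 200.1 and 358 (log2 fold change 2.71, adjusted p = 3.34e-05), and Slc2a1, the glucose carrier GLUT1, from 14 and 12.6 to 143 and 147 (log2 fold change 3.44, adjusted p = 5.04e-06). Pfkl, a phosphofructokinase, rose from 59.9 and 67.3 to 254 and 183 (log2 fold change 1.78, adjusted p = 3.73e-05) and its relative Pfkp fell from 557 and 588 to 227 and 213 (log2 fold change -1.38, adjusted p = 1.22e-05). Ldha, lactate dehydrogenase, fell from 2270.3 and 2516 to 1174 and 1175 (log2 fold change -1.03, adjusted p = 0.000363). None of these 6 genes overlapped between groups, as was true of nearly all calls. Nuclear genes of the respiratory chain were lower in 13 of 18 and higher in none (median -0.65), but in 6 with library size scaling. Atp5b, of ATP synthase, was at 2792 and 2929 normalized CPM in control and 1623 and 1550.4 in DMBA (log2 fold change -0.85, SE 0.13, adjusted p = 0.000693), and Sdha, of succinate dehydrogenase, at 787 and 828 in control and 444 and 418 in DMBA (log2 fold change -0.91, adjusted p = 0.000561). Of 12 tested genes that mitochondria encode, 8 were lower and none higher (6 with library size scaling), with mt-Nd5 at 2161 and 2076 in control and 1296 and 1140.3 in DMBA (log2 fold change -0.8, adjusted p = 0.000773).

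Genes of the unfolded protein response were lower in 10 of 15 and higher in none (median -0.54), and in 6 with library size scaling. Hspa5, the chaperone BiP, was at 1222 and 1202 normalized CPM in control and 417 and 699.9 in DMBA (log2 fold change -1.12, SE 0.22, adjusted p = 0.00252), and Trib3, a target of the factors Atf4 and Chop, at 18.3 and 25.2 in control and 1.25 and 1.12 in DMBA (log2 fold change -4.17, SE 0.34, adjusted p = 1.22e-05). Atf4 fell from 265 and 282 to 125 and 143 (log2 fold change -1.03, adjusted p = 0.000308), and Xbp1, the factor that builds the secretory pathway, was at 211 and 205 normalized CPM in control and 182 and 217 in DMBA (log2 fold change -0.06, adjusted p = 0.707). The list had 7 or 8 lower without control 1, control 2 or DMBA 1, and 12 without DMBA 2.

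A pair of groups of the same series that shares no library with these, TAM long and TAM short, also differs by the L and the S in its library names, and neither was labelled with DMBA. Names of the TAM libraries begin with DSS, and those of control and DMBA libraries with N. The TAM libraries are described as Dosage-sensitive TAM. What DSS stands for in these names could not be settled here, so the pair is called tamoxifen by its label alone. The difference of TAM long from TAM short was set beside that of DMBA from control, and the difference of these differences was tested. Of the 7735 genes called between DMBA and control, 7050 (91.14%) had the same sign in the tamoxifen pair, as did 4122 of the 4395 (93.79%) that differed by at least 2-fold. Across the 16179 genes, which are not independent replicates, the log2 fold changes had a Pearson r of 0.767. The test of the difference called 924 genes (5.71%), with the change from control to DMBA above the other in 450 and below it in 474, and 3613 genes had an unadjusted p under 0.05. Of the 7735 calls, 761 (9.84%) were among the 924. The count of 924 was sensitive to single libraries, with 344 without control 1, 202 without control 2, 1618 without DMBA 1, 342 and 179 without TAM short 1 and 2, and 319 and 474 without TAM long 1 and 2.

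Set against 5.71% of all genes, the difference was called in 13 of 22 conjugating enzymes, 13 of 19 sterol genes, 6 of 12 amino acid carriers, 5 of 10 genes of sugar handling, 6 of 16 fat absorption genes, 6 of 18 interferon-stimulated genes, 5 of 16 genes of the Cyp2, Cyp3 and Cyp4 families, 3 of 9 efflux pumps and 4 of 15 immediate early genes. Other lists above that share included 5 of 12 genes that mitochondria encode, 3 of 8 fetal-like genes, 5 of 15 goblet cell genes and 5 of 17 brush border hydrolases. The difference was called in 1 of 10 AhR genes, 1 of 20 p53 targets and none of 19 excision repair, 18 ERK or 17 PP2A genes, and a share of 5.71% of lists of this size is about 1 gene. Fabp1, the liver-type fatty acid binding protein, was at 1592 and 2754 normalized CPM in control and 0.536 and 0 in DMBA, but at 5.20 and 2.15 in TAM short and 2.76 and 0.0983 in TAM long (difference of the log2 fold changes -11.46, adjusted p = 0.00488). Fabp6 was at 7847 and 8965 normalized CPM in TAM short and at 2.76 and 0.885 in TAM long, and stayed low in control and DMBA at 2.83 and 0.241 in control and 1.16 and 1.01 in DMBA (11.62, adjusted p = 0.00146). Suox, sulfite oxidase, was at 625 and 776 in TAM short and 33.6 and 27.6 in TAM long, against 16.3 and 16 in control and 28.8 and 21.2 in DMBA (5.15, adjusted p = 7.61e-05). Among these 8 libraries, Fabp1 was thus high in control alone, and Fabp6 and Suox in TAM short alone. Pla2g4c, a phospholipase, was high in DMBA alone, at 225 and 594, with 6.11 and 4.94 in control, 26.4 and 36.1 in TAM short and 8.54 and 8.55 in TAM long (8.07, adjusted p = 0.000712). Saa1 was at 150.3 and 267 in TAM short and 901 and 1035 in TAM long, so the rise from 1.13 and 1.08 in control to 261 and 558 in DMBA was larger as a fold, though not in normalized CPM (difference of the log2 fold changes 6.29, adjusted p = 0.0012).

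**Figure D5:**
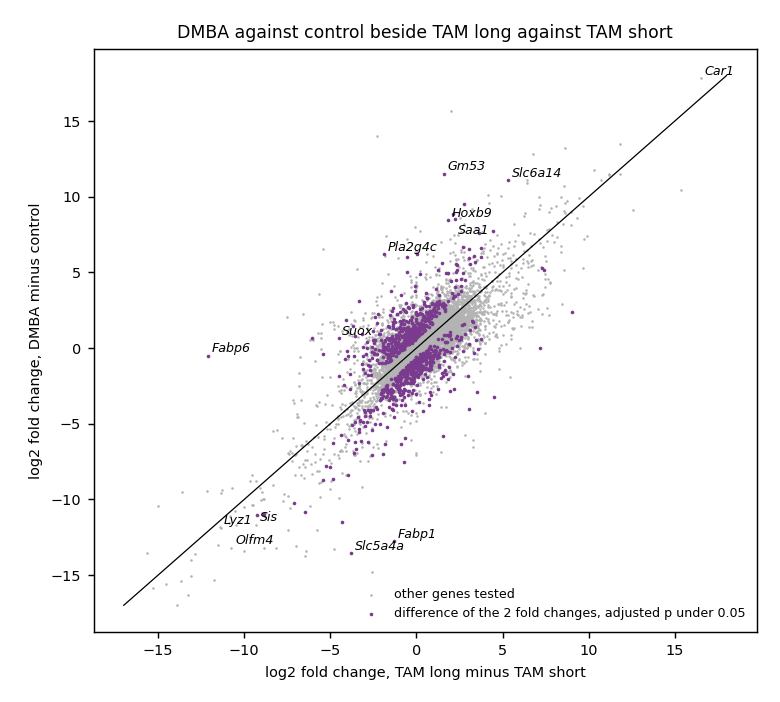
Log2 fold change of DMBA over control (y axis) against that of TAM long over TAM short (x axis), 1 point per gene tested, with the 924 genes whose difference was called in colour. Most points follow the diagonal (Pearson r of 0.767), and Fabp1 and Fabp6 lie far from it.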

How the data were processed

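RNA was measured by sequencing of polyadenylated RNA. TopHat was the aligner of the authors and HTSeq their counter, and the authors computed FPKM from counts and gene length. The submitters' processing notes name GRCm38.p6, and strand handling is not given in the sources used here. Deposited counts were tested as they stood, and deposited FPKM served to rank genes by their mean in a group. Columns of the authors' own comparisons hold their tests and were not used. Of 47074 lines, 5 were fragments without a gene identifier, and 98.77% of the identifiers were found in GENCODE M21.

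All 10 libraries, in 5 groups taken from the labels, were fitted with edgeR 4.0.16 in R 4.3.3 (filterByExpr, TMM scaling, glmQLFit and glmQLFTest with a mean per group), with Benjamini-Hochberg adjustment over all 16179 genes and a threshold of 0.05. An exact permutation test of 2 against 2 libraries cannot go below p = 0.333. Totals of the 4 libraries compared are from 9159327 to 10291026 counts, while the DMBA+TAM libraries in the fit held 1592366 and 1915270. The floor for a group at 0, which is 3 counts, equals 0.339, 0.361, 0.268 and 0.337 normalized CPM in control 1, control 2, DMBA 1 and DMBA 2. Ratios against a group that had counts, but no more than 3 in either library, have exact 95% intervals for counting error only.

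The members and the 59 gene lists were chosen with earlier results of these data known. Named genes were the 10 largest rises and 10 largest falls among calls with at least 10 normalized CPM in both libraries of the higher group, these within 4-fold of each other, and groups not overlapping. They also were the 4 list members of highest level, the 6 genes with the largest ratio between DMBA libraries and genes fixed by role, and others in the text were chosen after their values were seen. A few genes are not reported here. Alternatives were DESeq2 1.42.0, library size scaling, no filter, only the 4 libraries, a replicate block, a minimum change of 2-fold and leaving out each library. A fit without the DMBA+TAM libraries was added after seeing the data. The steps were tested on simulated data of 14308 genes, 200 of them changed 4-fold between DMBA and control, of which edgeR recovered 96% with 6.3% false calls and DESeq2 95% with 8.7%, and edgeR made 0 calls when no gene was changed. Also used were matplotlib 3.10.9, limma 3.58.1, NumPy 2.4.6, pandas 2.3.3 and Python 3.11.15.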

Additional observations from a re-analysis of the deposited data

How the results depend on the processing

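The count of genes changed between DMBA and control was 7735 and stayed within 1.5 times under DESeq2 (7043), library size scaling (7844), no filter (7909), only the 4 libraries (6648) and, an alternative chosen after seeing the data, no DMBA+TAM libraries (7919). Library size scaling left 2257 genes lower instead of 3774, and a fold of at least 2 left 4395 changed and 1720 lower. Leaving out 1 library gave 5167 to 7387 changed, 2424 to 3614 higher and 2743 to 3773 lower genes. The count of genes whose difference departed from that of the tamoxifen pair was 924, rose to 2025 without a filter and ranged from 179 to 1618 when 1 library was left out. Of 276 genes that the rule named or that led a list by level, 3 turned. Eif2s3y had a log2 fold change of 0.01 with library size scaling, which moves the median of all genes by about as much as it moved. Igha (-0.66) and Reg4 (-2.44) turned without DMBA replicate 2, and the cause was not tested. Without 1 library Igha ranged from -0.66 to 0.85 and Reg4 from -2.44 to 4.09. Over all alternatives for these genes, 2502 values kept direction and call, 76 gained a call, 169 lost it and 3 reversed. Of 525 calls among 807 list members and named genes, 150 were lost in at least 1 fit without a library, and 10 genes not called with all libraries were called with the opposite sign. Depth limits genes near the floor of 3 counts, for which only bounds or wide intervals could be given.

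With the replicate number as a block, 7632 genes were called, 3913 higher and 3719 lower, and 939 departed from the tamoxifen pair. Deviations of same-numbered control and DMBA libraries correlated with r = 0.087 across genes, and only 2 numbers were shared, so these libraries share a number and no pairing was assumed.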
